A study of Mus musculus with 8 samples.

Results

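Of the 2055 sites in the authors' deposited table of m6A sites that differ between aged and young mouse cortex cells, 476 sites in 373 genes were strongly edited within single cells at both ages. The table marks m6A by C-to-U conversion. For each age it gives the percent of cells called methylated at a site and the mean C-to-U fraction over all cells. The mean divided by the share of methylated cells gives the C-to-U level within methylated cells, and a site was taken where this level was at least 25% in young and in aged cells. Sites without a methylated aged cell were left out, as was the transcript CT010467.1, of which 0 sites reached both levels. The table covers 2623 young and 846 aged cells and 789 genes. Of its other sites, 280 reached 25% in young cells alone, 130 in aged cells alone and 1150 at neither age, and 19 had no methylated aged cell.

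The aged mice carried APOBEC1-YTH, a cytidine deaminase fused to a YTH domain, the module by which reader proteins hold N6-methyladenosine (m6A), and the assay is known as scDART-seq. They were 12 to 14 months old when tamoxifen was started. They received 20 mg/kg every 24 h for 5 days, and the cortex was taken 7 days after the last dose. Per the sample protocols, the cortex was digested to single cells, whole cells were fixed, and polyA RNA was barcoded by splitting and pooling with a Parse Biosciences kit. The design text of the series describes NeuN-stained sorted nuclei and total RNA instead, so the accounts differ. All 8 libraries are aged and are 4 lanes of 2 sublibraries. The young cells come from a companion study and enter only through the table. The sources used here do not give the genotype, age, treatment or kit of the young mice, nor the number of mice, their strain or the promoter that drives the transgene. Of the cell type markers looked up, those in the table include Slc17a7 and Camk2a of excitatory neurons and Slc1a2 of astrocytes, and it lists none of those for inhibitory neurons, oligodendrocyte precursors, microglia or endothelial cells. It lists sites that differ and no expression level, so a missing marker says nothing of the cells present.

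m6A is written onto mRNA by a methyltransferase complex with METTL3, mostly within the motif DRACH, in which D is A, G or T, R is A or G, and H is A, C or T. It is read by YTH proteins, which affect the splicing, export, translation and decay of the RNA. In mRNA the mark is densest near stop codons, in 3′ UTRs and in long internal exons. The deaminase of the fusion can edit the C that follows the methylated A.

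Since the table pools the cells of each age, replicate errors cannot be given for any mouse or library, and no test was made. It gives cells and not reads, so the read depth is not known. Shares carry exact binomial (Clopper-Pearson) 95% intervals in brackets, which cover counting error only. A cell without reads at a site is counted as unmethylated, so a difference in RNA or in reads per cell and a difference in methylation cannot be told apart. Every listed site has at least 25 methylated cells over both ages and an absolute log2 ratio of the means of at least 0.58. Because the sites were chosen on their C-to-U values at both ages, all values of young and aged cells below are descriptions.

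Letters around the edited C, which the rule did not use, were shared by many but not all of the highly edited sites. The letters more frequent among them than among other listed sites by at least 10 percentage points, in an unbroken run around the C, were T, G, A and A before it and G, G and G after it, which spell TGAACGGG. Read with the C as T, as in an edited read, they spell TGAATGGG. All 7 letters were present at 26 of the highly edited sites, in 25 genes, and 7 of these sites are shown here because they display the shared letters in genes of synapses, axonal transport and gene regulation. Each line gives 21 bases of the GENCODE M21 transcript (GRCm38, the same assembly as mm10), 5′ to 3′ on the strand of the gene, with the edited C as the eleventh base. Capitals mark the edited C and every letter that matches the run.
Rims1 (chr1:22534121-22534141, minus strand): cgcggaTGAACGGGagaggaa
Bsn (chr9:108106412-108106432, minus strand): agggtaTGAACGGGaacggga
Kif5c (chr2:49735437-49735457, plus strand): cagatgTGAACGGGgtcattg
Stmn3 (chr2:181307346-181307366, minus strand): tgagcaTGAACGGGaggtgct
Chd5 (chr4:152359693-152359713, plus strand): ggaggaTGAACGGGaggactc
Foxp1 (chr6:98935332-98935352, minus strand): aggagcTGAACGGGgccatgg
Son (chr16:91670484-91670504, plus strand): aatgagTGAACGGGcacttgc

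The sites with the highest C-to-U within cells at both ages, ranked by the lower of the 2 values, are shown next because most of them hold fewer of these letters. Of the first 10 by rank, 9 are shown, and Lman1 is named only. Those of Pdcd11 and Smc3 cross an exon junction, so their lines give the position of the edited C alone.
Got1 (chr19:43515782-43515802, minus strand): agattgctAACGacaacagcc
Tab2 (chr10:7907123-7907143, minus strand): ctgatcctgACGGGaggaagg
Chn1os3 (chr2:73615151-73615171, plus strand): taatttTtttCatGacattgt
Pdcd11 (chr19, 47092891, plus strand): aacaagacAACttatttgatg
Mycbp2 (chr14:103123356-103123376, minus strand): aagatgccgACGacatgtgca
Prag1 (chr8:36103765-36103785, plus strand): caggggctAACctcaagggag
Hook3 (chr8:26035149-26035169, minus strand): actgcagGAACGGGaccgact
Smc3 (chr19, 53638803, plus strand): ccaagtaGAACaGGaacttaa
Mycbp2 (chr14:103127921-103127941, minus strand): tgggaaaGgACGGGcaacaga

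The last set shows the site with the largest difference in share upwards, in Kif1a, and 4 of the 8 App sites, which lie close together in the same 3′ UTR and hold the largest difference downwards.
Kif1a (chr1:93055703-93055723, minus strand): cagaggTGAACGaGgaggaag
App (chr16:84955288-84955308, minus strand): ggcctcTGAACttGgacagcg
App (chr16:84955234-84955254, minus strand): tataaaatAACGtGgaaagaa
App (chr16:84955184-84955204, minus strand): cggcttTtgACaGctgtgctg
App (chr16:84955138-84955158, minus strand): aattaaTatACaaatcagtaa

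Within methylated cells the median C-to-U level of the highly edited sites was 50.2% in young cells, with quartiles of 37.6% and 62.3%. In aged cells the median was 61.4%, with quartiles of 41.2% and 78.9%. The other listed sites had medians of 12.9% and 2.83%, a gap that the rule itself sets. Both values reached 50% at 195 sites and 75% at 43 sites. The 2 ages lay within 10 percentage points of each other at 195 sites. The level was higher with age at 329 of the 476 sites (69.1%), where 31.9% of the 2036 listed sites with a methylated aged cell were higher. These are the values that chose the sites. The plot of C-to-U within methylated cells shows most of the sites above the line of equal values.

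**Figure D1:**
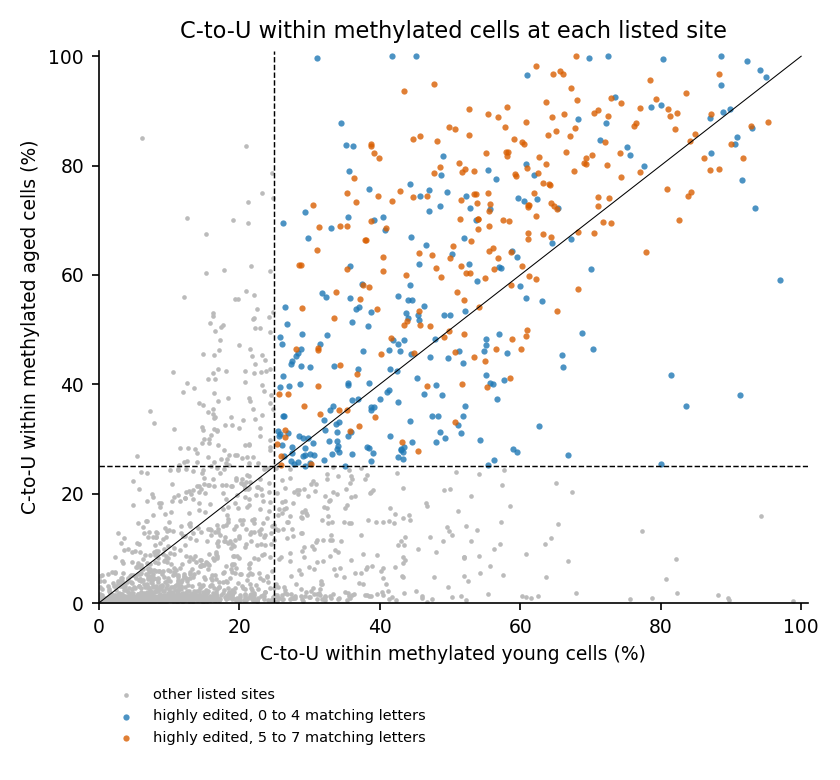
C-to-U within methylated cells (%) in young (x axis) and aged (y axis) cells, 1 point per listed site with a methylated aged cell. Dashed lines mark the 25% threshold at each age, the solid line marks equal values, and colours give the number of letters around the edited C that match the shared run. Of the 476 sites above both thresholds, 329 lie above the line of equal values.

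The threshold cuts through a continuous range. Just inside it were sites of Gatad2b (29.3% in young and 25.1% in aged cells), Strbp (35.1% and 25.2%), Rbm25 (25.99% and 25.3%) and Cnksr2 (55.4% and 25.3%). Just outside it, the lower of the 2 values was the aged one at Ryr2 (25.0%, below the threshold before rounding) and the young one at Calm3 (24.9%) and Aldoa (24.8%).

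Most highly edited sites rested on few cells. The median site was methylated in 27.5 young and 22 aged cells, and 70 sites had fewer than 10 methylated cells at 1 of the ages. At 6 sites there was 1 methylated aged cell. The values within cells at such sites are those of few cells, as at Clstn1 (41.7% over 137 young cells, 100% in 1 aged cell) and Lingo1 (45.2% over 136 young cells, 100% in 1 aged cell).

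Got1, which encodes the cytosolic aspartate aminotransferase, held the highest lower value. Its coding site was edited at 95.05% within 23 methylated young cells and 96.3% within 18 methylated aged cells. Tab2, an adaptor of TAK1 kinase signalling, reached 94.2% and 97.4% in its 3′ UTR, over 25 and 13 cells. These sites were methylated in few cells of either age but almost fully edited where they were found.

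Pdcd11, a ribosome biogenesis factor, had 89.9% and 90.4% over 17 and 33 cells. Mycbp2, a large ubiquitin ligase of axons, had a pair of sites in this set, with 88.8% and 89.7% at position 103123366 and 92.9% and 87.3% at position 103127931. Smc3, a cohesin subunit, had 95.2% and 88.0%, and Hook3, a dynein adaptor, had 88.3% and 96.8%. Lman1, a cargo receptor of the endoplasmic reticulum, had 88.6% and 94.8%. Prag1, a pseudokinase, had 88.6% over 89 young cells and 100% over 5 aged cells, and the noncoding transcript Chn1os3 had 92.3% over 88 young cells and 99.1% over 7 aged cells. Of these 10 sites, the share of methylated cells was lower in aged cells at Prag1 and Chn1os3 and higher at the other 8.

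The base before the edited C was A at 435 of the 473 highly edited sites with transcript sequence (92.0%, 89.1 to 94.3). Among the other listed sites this share was 72.1% (69.7 to 74.3), and among other C bases within 100 bases of the highly edited sites it was 25.5%. The first 3 places of the motif and its C (DRAC) were present at 81.0% of highly edited and 59.8% of other listed sites. The full DRACH motif was present at 208 of the 473 sites (44.0%, 39.4 to 48.6) and at 46.7% (44.2 to 49.3) of the other sites, intervals that overlap. The last letter separates these counts: G, which is outside the motif, followed the edited C at 43.3% (38.8 to 47.9) of highly edited and 24.5% (22.3 to 26.7) of other sites, and followed 11.2% of the other C bases nearby.

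The run of shared letters was chosen from these sites after their sequences were seen, so its counts are descriptions. Among highly edited sites G stood 3 bases before the edited C at 49.7%, against 20.6% of other listed sites. It stood 2 bases after the C at 49.9% against 21.9%, and 3 bases after the C at 57.3% against 19.3%. T stood 4 bases before the C at 27.5% against 16.4%. The most frequent letter at that place was A, at 42.7% of highly edited and 50.2% of other listed sites. The 6 letters AACGGG, with the edited C, were found at 112 of 473 highly edited sites (23.7%, 19.9 to 27.8) and at 14 of 1509 other sites.

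At least 5 of the 7 letters matched at 231 of 473 highly edited sites (48.8%, 44.2 to 53.4). The same held at 73 of 1509 other listed sites (4.8%, 3.8 to 6.0) and at 250 of 19231 other C bases within 100 bases (1.30%). The letters were picked as more frequent than at the other listed sites, so lower counts there follow from the choice. The match held at 2.51% (1.01 to 5.10) of sites high in young cells alone and 10.0% (5.43 to 16.5) of sites high in aged cells alone. Of sites low at both ages, leaving out CT010467.1, 4.72% (3.53 to 6.16) matched. Over all listed sites binned by the lower of the 2 values within cells, 3.89% of sites under 5% matched, 6.83% of those from 10% to 25%, 33.6% from 25% to 50%, 75.3% from 50% to 75% and 55.8% from 75% upwards. The matching share was thus not highest in the highest bin, which holds 43 sites (39.9 to 70.9).

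A search of 1 transcript for each of 785 listed genes shows how often such letters were listed at all. Of 46 occurrences of TGAACGGG in these transcripts, on the transcript strand, the C was a listed site at 27 (58.7%, 43.2 to 73.0) and a highly edited site at 26. With 6 matching letters, 117 of 906 C bases were listed (12.9%), and with 5 letters 151 of 8756 (1.72%). Of 94920 C bases in DRACH, 873 were listed (0.920%), and of all 1080063 C bases 0.175%. The transcripts are those of genes in the table, so the shares do not extend to other genes. Of the 231 matching highly edited sites, 104 were the only listed site of their gene. Such a gene was searched only because of that site, which raises the shares. Oligonucleotides used in making a library can anneal to RNA that resembles them and leave their own letters in the reads, and a C-to-U call made in that way would not mark m6A. The oligonucleotide sequences of the library kit were not used here, so whether the shared letters resemble them was not tested. At the 231 matching sites, edited and methylated are therefore the terms of the table, and m6A was not measured there in another way.

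**Figure D2:**
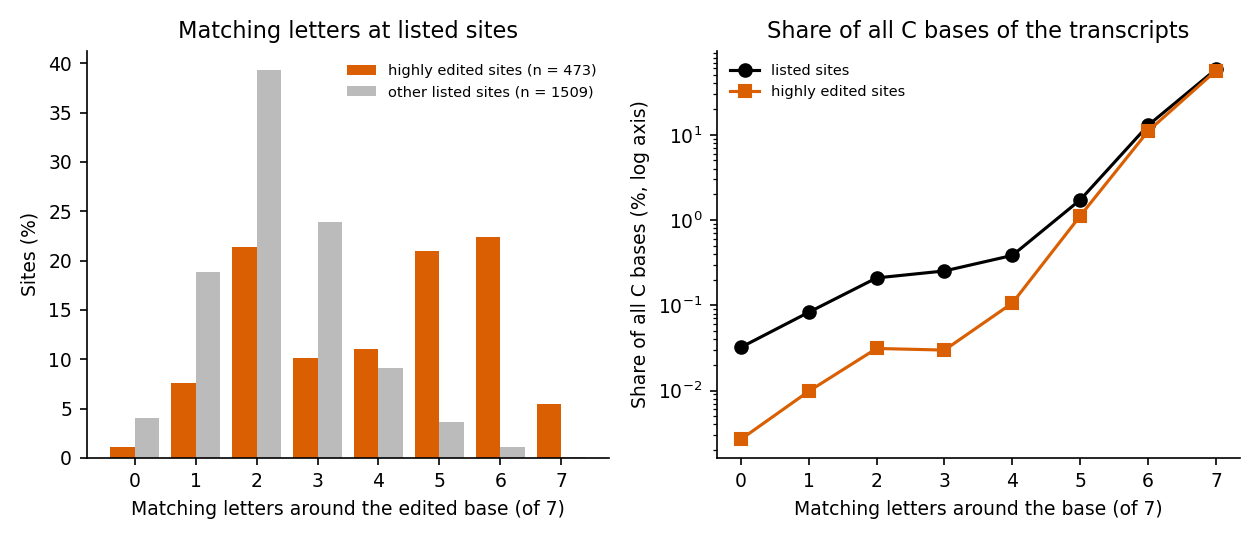
Left, percent of highly edited and of other listed sites (y axis) by the number of the 7 shared letters that match around the edited C (x axis). Right, percent of all C bases of 1 transcript per listed gene that are listed or highly edited sites (log axis) by the same number; both lines end above 50% at 7 letters.

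The part of listed sites that was highly edited differed with the number of matching letters. It was 14.6% at 2 letters, 11.7% at 3, 27.5% at 4, 64.3% at 5, 86.2% at 6 and 96.3% at 7. The letters were picked as more frequent at the highly edited sites, so a rise with their number follows at least in part from that choice. The median level within young cells was 43.3% at the highly edited sites with 2 letters and 61.8% at those with 7, and within aged cells it was 43.1% and 80.4%. All 26 sites with 7 letters had a higher share of methylated cells in the aged sample, and by construction 0 of them lay in DRACH, since G follows the C. Of these 26 sites, 23 lay in coding sequence, where 94.8% of highly edited and 94.6% of other listed sites were higher by share.

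Highly edited sites lay in coding sequence at 289 of 474 (61.0%, 56.4 to 65.4), against 32.6% (30.3 to 35.0) of other listed sites. They lay in 3′ UTRs at 133 (28.1%, 24.1 to 32.3) against 35.7%, in noncoding exons at 37 (7.8%) against 27.3%, and in 5′ UTRs at 14. At Ptprd and Atp2b1, both coding genes, the exon belonged to a noncoding transcript and was put in the noncoding class. The region differed with the letters: of the 231 matching sites, coding sequence held 83.5% (78.1 to 88.1) and 3′ UTRs 10.4%. Of the 242 other highly edited sites, coding sequence held 39.7% (33.5 to 46.1) and 3′ UTRs 45.0%.

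**Figure D3:**
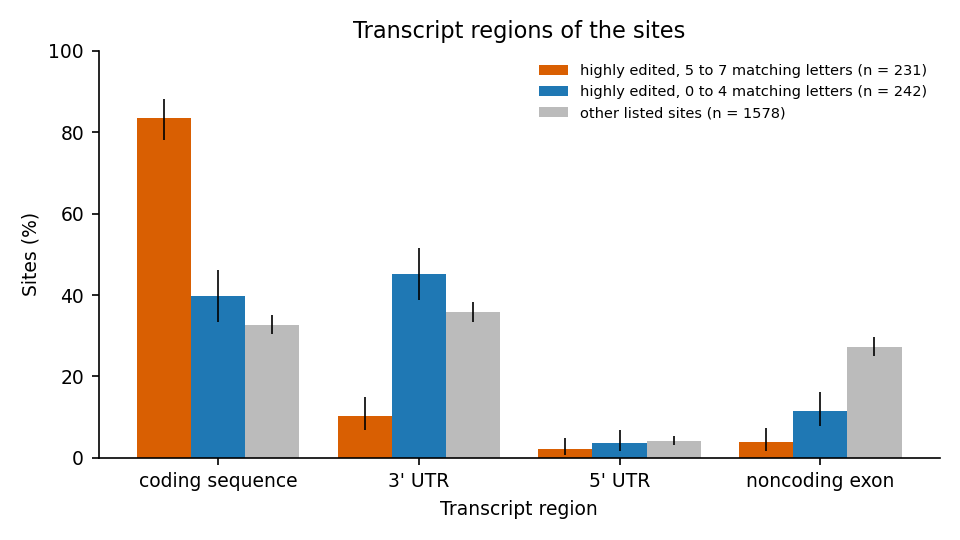
Percent of sites (y axis) in each transcript region (x axis) for highly edited sites with 5 to 7 and with 0 to 4 matching letters and for other listed sites; lines are Clopper-Pearson 95% intervals. Coding sequence holds 83.5% of the matching sites and 39.7% of the other highly edited sites.

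Exon length and distance to a junction differed over all regions together, and less within a region. The median exon was 689 bases long at the highly edited and 1598 bases at the other listed sites, and the median distance to the nearest exon junction was 148 and 363 bases. Within coding sequence the median exon was 192 (174 to 223) and 217 (198 to 246) bases and the median distance 55 and 63 bases, and within 3′ UTRs the median exon was 3332 and 3206 bases and the median distance 1220 (760 to 1492) and 887 (785 to 973) bases. The same held for the letters: the median exon was 213 bases at matching and 1796 bases at the other highly edited sites, but 190 (173 to 211) and 228 (159 to 427) bases within coding sequence, with distances of 50 and 65.5 bases. Of the 289 coding sites, the edited C was the first base of a codon at 150 (51.9%, 46.0 to 57.8), against 33.2% (29.1 to 37.5) of other listed coding sites. Among the matching coding sites this share was 60.6% and among the other highly edited coding sites 34.4%. Among matching coding sites outside the rule it was 34 of 47 (72.3%, 57.4 to 84.4), so the codon place went with the letters. DRACH held 30.7% of the matching and 56.6% of the other highly edited sites.

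The sites were also spread more thinly. Another listed site of the same gene lay within 10 bases of 39 highly edited sites (8.2%, 5.89 to 11.03), against 33.4% of other listed sites. A single highly edited site was found in 307 genes, 2 in 48 genes and 3 or more in 18 genes, and in 202 genes it was the only listed site. The 41 bases around the site also occurred in another annotated gene at 16 sites, whose gene is therefore uncertain.

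By mean C-to-U, aged cells exceeded young cells at 392 of the 476 sites (82.4%) and were lower at 84, where 41.5% of all listed sites were higher and 58.5% lower. The share of methylated cells was higher at 391 (82.1%), where it was higher at 75.4% of all listed sites. The measures had the same direction at 469 sites. The median share was 1.05% of young and 2.60% of aged cells, the median ratio of the shares 2.53, and the median log2 ratio of the means 1.47. The interval of the aged share lay wholly above that of the young share at 259 sites and wholly below it at 53, and the intervals overlapped at 164. The same counts over all listed sites are not given here, and every site was listed as differing with age. These 3 counts therefore do not set the highly edited sites apart. The matching sites lay mostly above: the share was higher in aged cells at 223 of 231 (96.5%, 93.3 to 98.5), against 166 of the 242 other highly edited sites (68.6%, 62.3 to 74.4). These sets differ in their regions. Within coding sequence the counts were 192 of 193 (99.5%, 97.1 to 99.99) and 82 of 96 (85.4%, 76.7 to 91.8), beside 94.6% of other listed coding sites, and within 3′ UTRs 17 of 24 (70.8%, 48.9 to 87.4) and 55 of 109 (50.5%, 40.7 to 60.2). The plot of the share of methylated cells by age shows the matching sites crowded above the line of equal shares and a second group, mostly with few matching letters, far below it.

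**Figure D4:**
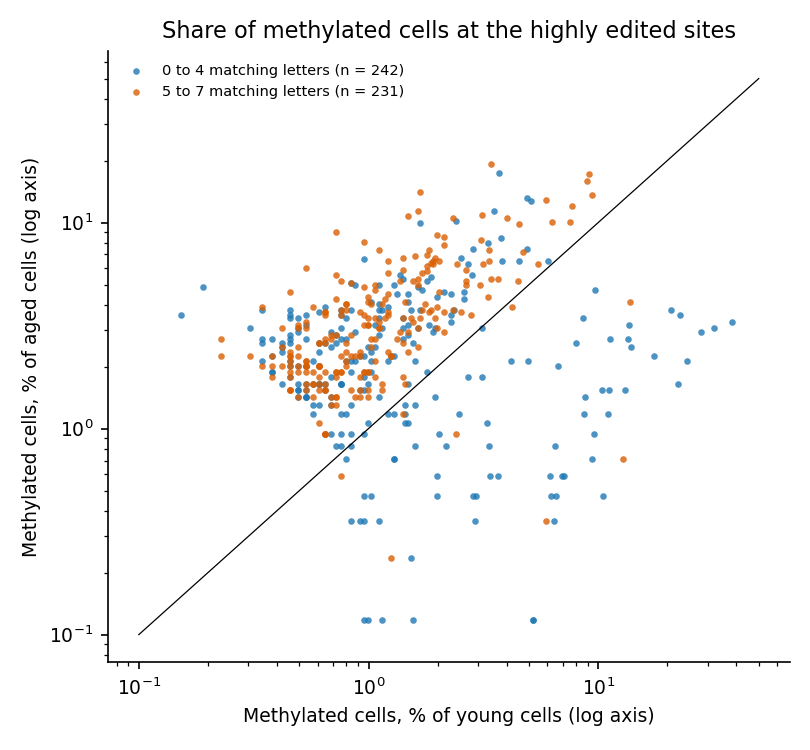
Share of methylated cells in young (x axis) and aged (y axis) cells at the highly edited sites with transcript sequence, both axes logarithmic, 1 point per site; the line marks equal shares. Of the 231 sites with 5 to 7 matching letters, 223 lie above the line, and of the 242 with 0 to 4 letters 166 do.

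The largest difference upwards was at Kif1a, the kinesin that carries synaptic vesicle precursors, in coding sequence of exon 22 of 48 at position 93055713. It was called methylated in 90 young cells, 3.43% (2.77 to 4.20), and in 162 aged cells, 19.1% (16.5 to 22.0). The level within them was 45.6% and 64.1%. In the authors' deposited table its adjusted p was 1.15e-24.

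Snhg14, the imprinted host transcript of neuronal snoRNAs, came next with 3.698% (3.01 to 4.49) in young cells and 17.5% (15.0 to 20.2) in aged cells. Its level within cells was among the lower ones, at 27.2% and 39.6%, and 1 of the 7 letters matched. Ptprd, a receptor phosphatase of synapses, had shares of 1.68% (1.22 to 2.25) and 14.1% (11.8 to 16.6) with levels of 67.7% and 78.9% within cells. Dlgap4, a postsynaptic scaffold, had 1.64% and 11.3%, and its level within cells was 70.3% and 82.0%. Dmd, the dystrophin gene, had a share of 0.724% (0.437 to 1.13) in young and 8.98% (7.14 to 11.1) in aged cells, a ratio of 12.4, and a level of 58.1% and 81.8% within them. Zfp91, a zinc finger ubiquitin ligase, had 2.33% and 10.5%. At each of these sites the interval of the aged share lay above that of the young share. The sites were named for the largest difference upwards in share, so this largely follows from the choice.

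The 85 sites with a lower share in aged cells, where the share was lower at 24.6% of all listed sites, differed in region and letters. Of them 61 lay in 3′ UTRs and 15 in coding sequence, and 8 of 84 had 5 or more matching letters. Their median share was 3.39% in young and 0.946% in aged cells, beside 1.05% and 2.60% over all highly edited sites. Because they were picked for a young share above the aged one, this gap follows in part from the choice. By C-to-U within cells, aged exceeded young at 55 of these sites (64.7%). This was near the 69.1% of all highly edited sites, and these values chose the sites. Of the 8 matching sites with a lower share, 7 lay in 3′ UTRs, and they included the glutamate receptor gene Grin2b (13.8% and 4.14%) and the calcineurin subunit gene Ppp3r1 (12.8% and 0.709%). The 1 in coding sequence was in Grin1, with 4.23% and 3.90%, and their intervals overlapped. Taking the regions in turn, 274 of 289 highly edited coding sites (94.8%) and 72 of 133 3′ UTR sites (54.1%, 45.3 to 62.8) had a higher share in aged cells. The other listed sites of the same regions were much the same by share, with 487 of 515 in coding sequence (94.6%) and 271 of 564 in 3′ UTRs (48.0%, 43.9 to 52.3). The direction of the share thus went with the region over the whole table. By mean C-to-U this did not hold. In coding sequence 95.2% of highly edited and 36.9% of other sites were higher with age, and in 3′ UTRs 54.1% and 17.0%. The mean depends on the level within cells, which chose the sites.

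App, the amyloid precursor protein gene, held the most highly edited sites, 8 of its 12 listed sites, all in the 3′ UTR and between 33 and 183 bases after the stop codon. All 8 had a lower share of methylated cells in the aged sample and a higher C-to-U level within them. From the site nearest to the stop codon to the farthest, the share in young cells was 5.91%, 8.69%, 6.21%, 13.0%, 24.3%, 28.0%, 32.1% and 38.1%. In aged cells it was 0.355%, 1.18%, 0.473%, 1.54%, 2.13%, 2.96%, 3.07% and 3.31%. Except at the site 47 bases after the stop codon, which was lower than its neighbour, each site farther from the stop codon had a higher share at both ages.

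The level within young cells ran from 25.9% to 32.4% among these App sites, and within aged cells from 44.3% to 71.5%. The rule puts a floor under both values and left out the other listed App sites. The narrow young range may therefore follow in part from the choice, and the order of the ages within cells rests on the same values. The aged values rested on 3 to 28 cells per site. At the farthest site the share was 38.1% (36.2 to 39.98) in young cells and 3.31% (2.21 to 4.75) in aged cells, 11.5 times lower, while the level within cells was 32.4% and 55.9%. The sites share 1 transcript end and some of the same cells and reads, so they are not independent of each other. Between 2 and 5 of the 7 letters matched at each.

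**Figure D5:**
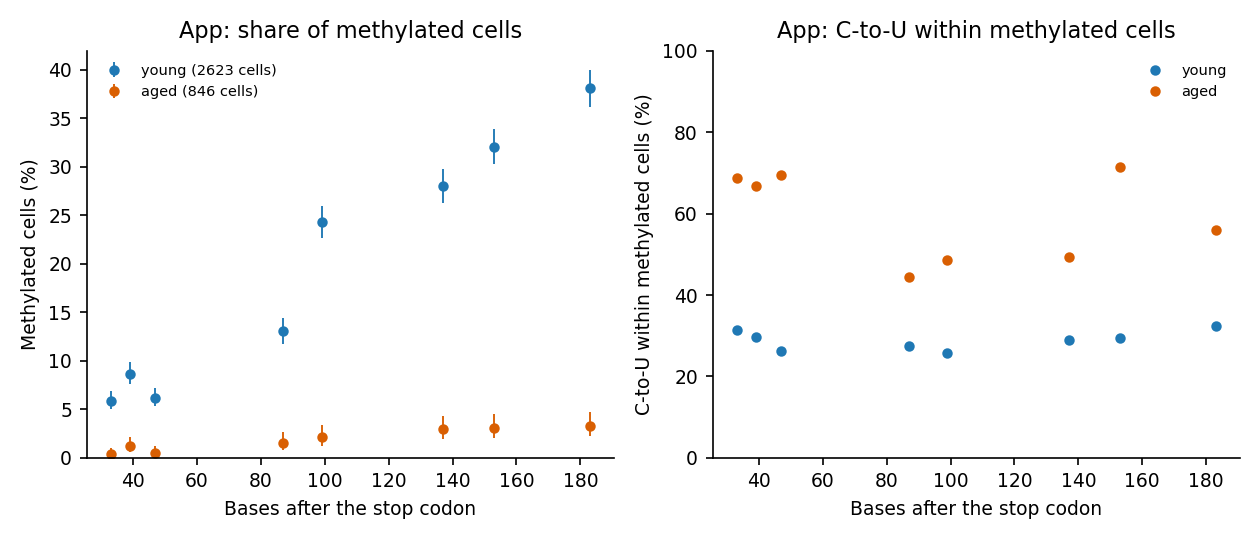
The 8 App sites by distance from the stop codon (x axis, bases): left, share of methylated cells (%) with Clopper-Pearson 95% intervals; right, C-to-U within methylated cells (%). The young shares run from 5.91% to 38.1% and lie above the aged ones, which stay at or under 3.31%, while within cells the aged values lie above the young ones.

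Other 3′ UTRs had the same order of the ages. Gria3, an AMPA receptor subunit gene, had 22.2% (20.6 to 23.8) in young cells and 1.65% (0.908 to 2.76) in aged cells, with 44.4% and 76.7% within them. Vsnl1, a neuronal calcium sensor gene, had 17.6% (16.1 to 19.1) and 2.25% (1.36 to 3.49), with 55.7% and 72.1% within cells. The 3 sites of Cx3cl1, the neuronal chemokine fractalkine, lay between 6.94% and 13.5% in young and between 0.591% and 2.72% in aged cells, and 2 of them were 3 bases apart. A site outside 3′ UTRs, in an intron of Gm47283, a predicted gene of the Y chromosome, had shares of 26.2% and 3.19%. Its sequence is not shown.

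Genes with several highly edited sites in coding sequence are described next, and most of their sites had a higher share in aged cells, as did 94.6% of the other listed coding sites. Dst, which encodes the cytoskeletal linker dystonin, had 5 listed sites, all highly edited, and 4 of them matched at 5 or more letters. Their shares ran from 0.457% to 4.003% in young and from 2.25% to 10.5% in aged cells, and each was higher in aged cells, while the level within cells was higher at 2 of 5. Sltm, a nuclear RNA-binding protein gene, also had all 5 of its listed sites among them, with levels from 29.4% to 91.7% in young and from 25.9% to 82.4% in aged cells. Sites of 1 gene could thus lie at both ends of the range.

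Pclo, which encodes the active zone scaffold piccolo, had 5 highly edited sites out of 17 listed, with shares from 0.534% to 2.86% in young and from 2.01% to 10.8% in aged cells. Dnm1, the dynamin of synaptic vesicle recycling, had 3, all matching, and the most widely methylated one had 9.38% of young and 13.6% of aged cells. Mycbp2, Syne1 and Ankrd12 had 4 each and Akap9, Eif3a, Rnf20 and Slc1a2 had 3 each, all with a higher share in aged cells. Slc1a2, the glutamate transporter of astrocytes, carried its 3 in the 3′ UTR, with shares of 0.724% to 1.41% in young and 3.07% to 5.56% in aged cells. This is a set of 3′ UTR sites with the direction of the coding sites.

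In 9 genes highly edited sites differed in direction. Kif1a had 3 sites with a higher and 1 with a lower share in aged cells. At the latter, at position 93054341, the share was 2.94% (2.32 to 3.66) in young cells and 0.473% (0.129 to 1.21) in aged cells, and the level within cells was 80.1% over 77 young and 25.5% over 4 aged cells. Tulp4 had 3 sites in the 5′ UTR with shares of 6.48% to 11.2% in young and 0.827% to 2.72% in aged cells, and 1 site in a noncoding exon with 3.16% and 6.26%. Fat3, a protocadherin gene, had 1 site with a higher share, which matched at 6 letters, and 3 with a lower share, which matched at 1 or 2. In both Fat3 and Kif1a, the direction therefore differed between sites of the same transcript.

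The largest differences in the level within cells came mostly with few aged cells. At Syt1, the calcium sensor of vesicle release, the level was 31.1% over 172 young and 99.6% over 4 aged cells. At Arhgap5, a GTPase activating protein gene, it was 34.6% over 11 young and 87.7% over 22 aged cells. In the other direction, Cdh10, a cadherin gene, had 91.3% over 18 young and 38.1% over 25 aged cells, and Sart3, a splicing recycling factor, had 81.5% over 20 and 41.7% over 23 cells. At these last 3 sites the values rest on 11 to 25 cells at each age, and the spread between cells is not given.

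Gene groups were taken from 10 lists, and their counts stand beside the 23.2% of all listed sites that were highly edited (476 of 2055) and the 82.1% of highly edited sites with a higher share in aged cells, 94.8% in coding sequence and 54.1% in 3′ UTRs. Of the m6A machinery, 2 of 4 listed sites were highly edited, in the nuclear reader Ythdc1 (44.9% and 45.8% within cells) and the writer complex member Zc3h13 (35.7% and 31.4%). Both lay in coding sequence, matched at 5 letters and had a higher share in aged cells. At Ythdc1 the shares were 0.877% and 2.25% and at Zc3h13 0.381% and 2.25%.

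Of 142 listed sites in genes of splicing and RNA binding, 12 were highly edited (8.45%), all 12 in coding sequence and with a higher share in aged cells, and 11 matching. Son, a nuclear speckle protein, had 77.0% and 78.9% within cells, Acin1 73.0% and 69.5%, and the RNA-binding protein Qk 64.5% and 89.0%. In chromatin and transcription genes 15 of 39 were (38.5%), 14 of them in coding sequence, 14 higher by share and 12 matching. Kmt2a, a histone H3 lysine methyltransferase, had 88.3% and 79.4%, and Tcf20, the exception among the named ones, had a share of 1.52% in young and 0.236% in aged cells.

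Cytoskeletal and transport genes had 29 highly edited sites out of 65 listed (44.6%), 28 of them in coding sequence, 28 with a higher share and 20 matching. The spectrin genes Sptan1 (87.0% and 79.1% within cells) and Sptbn1 (62.6% and 81.6%) were among them. Genes of presynaptic release had 18 of 112 (16.1%), 11 of them in coding sequence, with 15 higher by share and 6 matching. The active zone gene Rims1 had 72.3% and 87.8% at position 22425905, the active zone scaffold Bsn 60.8% and 88.0%, and the vesicle protein gene Sv2b 56.5% and 77.6%.

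Postsynaptic genes had 15 of 77 (19.5%, near the share over all listed sites), 8 of them in 3′ UTRs, and 10 of the 15 were higher by share. Grin2b (70.5% and 89.6%) and the GABA-B receptor gene Gabbr1 (68.3% and 88.5%) had strong editing within cells and a lower share in aged cells, 13.6% and 3.19% at Gabbr1. In calcium signalling 9 of 107 were highly edited (8.41%), 7 of the 9 lay in 3′ UTRs and 3 of the 9 were higher by share. Atp2b1, a plasma membrane calcium pump, was higher, with 4.50% and 9.81%. Ion channel genes had 10 of 23 (43.5%), 6 of them in 3′ UTRs, and 5 of the 10 were higher by share. The calcium channel gene Cacna1e had 58.0% and 82.6% within cells and Scn8a, a sodium channel gene, 38.0% and 66.3%. These 3 lists had the smallest part of sites higher in aged cells and the largest part in 3′ UTRs.

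Protein quality control genes had 5 of 23 (21.7%, near the share over all listed sites), 4 of them in coding sequence and all 5 higher by share. Uggt2, which recognises misfolded glycoproteins, had shares of 2.40% and 10.2% and levels of 87.0% and 88.6% within cells, with 2 matching letters. The chaperone genes Hsp90b1 (50.5% and 65.2%) and Hspa8 (35.4% and 68.9%) matched at 6 and 5 letters. Of long noncoding RNAs, 8 of 336 listed sites were highly edited, 2.38%, the smallest part of any list. All 8 were higher by share and 1 matched, and they lay in Snhg14, Kcnq1ot1 (43.5% and 28.5%), Xist (47.9% and 39.8%) and Meg3.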

How the data were processed

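Single-cell C-to-U data of aged cortex (8 libraries, 1 group) were analysed through the authors' deposited table of differing sites. The submitters' processing notes name STAR 2.7.5 and mm10. Bullseye, which calls C-to-U sites, is named in the design text of the series. The sources used here give no read filter, no depth and no account of the authors' test. Per the file headers, the authors give the percent of cells methylated, the count of methylated cells, the mean C-to-U fraction over all cells, a log2 ratio (its sign turned here so that positive means higher in aged cells) and a p-value with its adjusted p-value. Per-cell expression was not analysed here.

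Transcripts of GENCODE M21 (GRCm38) gave each site its region and sequence; 781 genes were found under the deposited name, 6 through RefSeq synonyms and 2 under neither. Deposited positions were read as counted from 0, which gave C at 1982 of 2049 sites against 209 for the other reading. Printed positions count from 1. Of the 476 highly edited sites, 3 had no transcript sequence. Python 3.11.15, pandas 2.3.3, numpy 2.4.6, scipy 1.17.1 and matplotlib 3.10.9 were used, and the steps were tried on simulated tables. The members, the 10 gene lists and the rules were chosen with earlier results of these data known.

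Named sites were the 10 with the highest lower level within cells, the 6 with the largest difference each way in share and in mean, the 4 with the largest difference each way within cells, genes with at least 3 sites, up to 3 genes per list and 4 sites on each side of the threshold. Genes shown for matching all 7 letters, and Grin1 and Ppp3r1, were chosen after their values were seen. Some sites that the rule names are not reported here. The threshold, the merging of sites and other choices were varied as given in the closing section.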

Additional observations from a re-analysis of the deposited data

How the results depend on the processing

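Of 92 values recomputed under 9 alternatives, 73 moved by less than their 95% interval or, for counts of sites, by less than 1.5 times. With a threshold of 20% in place of 25%, 54.7% of sites lay in coding sequence and 33.3% in 3′ UTRs, and the aged value was the higher one at 78.2% by mean and at 78.3% by share. With a threshold of 30%, 66.1% lay in coding sequence and 73.7% were higher within cells. With at least 10 methylated cells at each age, 91.1% were higher by mean and 90.6% by share. This floor falls more on sites with a lower share in aged cells. Their median was 8 methylated aged cells, against 25 at sites with a higher share, so the choice itself raises these 2 values. For the values at thresholds of 20% and 30% the cause was not tested. An alternative chosen after seeing the data left out the sites with 5 or more of the 7 letters, which by construction removes 231 of the 476. It left 245 sites in 206 genes, of which 85.5% had C after A, 56.6% lay in DRACH, 39.5% in coding sequence and 44.9% in 3′ UTRs. The aged value was the higher one at 67.8% by mean, 68.6% by share and 58.8% within cells, with a median junction distance of 380 and exon length of 1796 bases. Merging sites within 10 bases, 1 site per gene, the longest transcript and leaving out sites with copies in another gene moved none of the values recomputed. Keeping CT010467.1 could move none, since 0 of its sites reached both levels, and its values count among the 73. Leaving out a library was not run, since the table has no value per library. No paired analysis was possible because the table holds no value per replicate and the young libraries were not used here. The number of cells limits the precision, and the read depth is not known.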

Other observations

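Of the sites outside the rule, 73 also matched at 5 or more of the 7 letters, and 47 of these lay in coding sequence. Within methylated cells they had a median C-to-U level of 13.0% (young) and 6.35% (aged). Methylated cells were more frequent with age at 59 of the 73 (80.8%, 69.9 to 89.1), and mean C-to-U was higher with age at 34 (46.6%, 34.8 to 58.6). The 1 site with all 7 letters outside the rule was in Snap25, a SNARE protein gene of vesicle fusion.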
